A study of Oryza sativa with 51 samples.

Results

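LHY (LATE ELONGATED HYPOCOTYL) was followed through 48 h in flag leaves of hybrid rice and its parents. It is the locus LOC_Os08g06110, 1 of the 34653 loci in the deposited expression table. It was taken by that identifier and not by a cut on measured values, though earlier results of these data were known. The 3 lines were the super-hybrid LY2186, its sterile-line parent, SE21s, and MH86, the restorer line that served as the other parent. All were grown together in the field under shared conditions and sampled at grain filling. Each line had 17 libraries, 1 for every 3 h from Zeitgeber time (ZT) 0 to ZT48, or 51 in all. No line was treated. The light schedule is not given in the sources used here, nor whether libraries of a line came from separate plants.

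LHY encodes a MYB transcription factor of the morning part of the plant circadian clock. In Arabidopsis, LHY and its relative CCA1 repress evening genes such as TOC1, GI and LUX, while pseudo-response regulators (PRR proteins) repress LHY and CCA1 through the day. The evening complex, which holds ELF3 and LUX, represses PRR genes at night and so closes the loop. Rice has a single gene of the CCA1 and LHY pair, also called OsCCA1. Clock genes of this loop set when photosynthesis, starch and growth genes are used in leaves. A RefSeq gene table (assembly ASM3414082v1) lists a rice gene with the synonyms LHY, OsLHY and OsCCA1 on chromosome 8. It matched 0 of the 34653 identifiers, so symbols come from general knowledge of rice loci and no coordinates are given.

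The values are FPKM, fragment abundances divided by transcript length and by library size, which allow levels of different genes to be set side by side. Sums over loci ran from 824871 to 2467820 FPKM per library, and the top 3 loci held 24.6% to 68.6% of a sum. No fragment counts were used here, so the depth behind a value is unknown. All 6 leaf markers (small Rubisco subunits, chlorophyll-binding proteins and PsbS) averaged at least 1 FPKM in every line, with a summed median of 16700 FPKM in LY2186, 28100 in SE21s and 9550 in MH86. The 5 grain endosperm markers summed to a median of 4.12, 4.07 and 4.53 FPKM in the same order. Their highest sum in a library was 48.2 FPKM in LY2186, 12.7 in SE21s and 12.2 in MH86. At clock hour 15, GluA1 and GluA2 were called higher in LY2186 than in SE21s (log2 2.49 and 1.01, limma adjusted p = 0.011 and 0.032). The part of these markers in the LHY differences was not tested. The 8 floral organ markers summed to a median of 12.5, 15.2 and 10.3 FPKM, most of it from MADS16 (mean 11.1 in LY2186, 16.8 in SE21s and 8.81 in MH86). The endosperm gene GluB1 and the ovule gene MADS13 were listed at 0 in every SE21s and MH86 library. Leaf marker levels and MADS16 followed the same order of lines as mean LHY, and their part in the LHY differences was not tested. In these bulk leaf samples, fewer cells of a type and less RNA per cell cannot be told apart.

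LHY peaked around ZT0, ZT24 and ZT48 in every line, where ZT0 and ZT48 were the first and last samples. Between the peaks it sank to 1.71 FPKM at its lowest in LY2186, 3.15 FPKM in SE21s and 0.931 FPKM in MH86. In LY2186 the first day, from ZT0 to ZT21, gave 2720, 1880, 229, 8.63, 2.26, 1.71, 13 and 189 FPKM. The second day, from ZT24 to ZT45, gave 3040, 2220, 199, 7.03, 2.26, 1.71, 22.6 and 453 FPKM, and ZT48 gave 3200 FPKM. The hybrid was thus high at ZT0 and ZT3 and their repeats, intermediate 6 h after the peak, and low for the 4 samples that followed.

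In SE21s the first day gave 3490, 1650, 227, 10.4, 3.15, 6.61, 116 and 1690 FPKM, in the same order of times. The second day gave 3180, 1910, 178, 12.7, 3.82, 7.69, 131 and 1770 FPKM, and ZT48 gave 4170 FPKM. Here LHY was already climbing at ZT15 and ZT39, and 3 h before the peak it stood at the level it had 3 h after it.

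In MH86 the first day gave 1780, 1470, 140, 6.83, 1.89, 0.931, 2.98 and 55 FPKM. The second day gave 1280, 1530, 121, 7.17, 0.998, 1.2, 4.42 and 92.5 FPKM, and ZT48 gave 2040 FPKM. MH86 kept LHY low longest, and on its second day the ZT27 value lay above the ZT24 value. None of the 51 values was an exact 0.

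**Figure D1:**
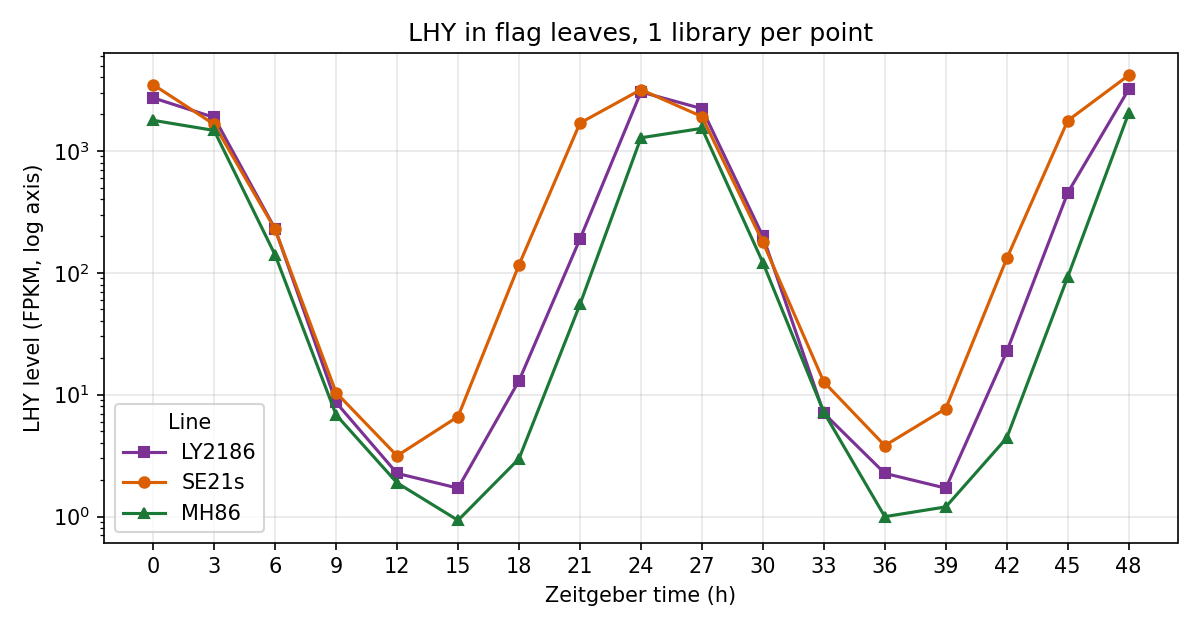
LHY level (FPKM, log axis) against Zeitgeber time (h) in LY2186, SE21s and MH86, 1 point per library. The falls after each peak lie closer together in the 3 lines than the climbs; the climb before ZT24 and ZT48 comes first in SE21s, then in LY2186, then in MH86.

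At its highest LHY ranked 20 among all loci of a library in LY2186, 20 in SE21s and 33 in MH86. At its lowest it ranked 15084, 13147 and 16477 in the same lines. The highest library exceeded the lowest 1870-fold in LY2186, 1320-fold in SE21s and 2190-fold in MH86. A 24 h cosine and sine fit in limma on log2(FPKM + 0.5) called LHY rhythmic in LY2186 (adjusted p = 7e-13), in SE21s (adjusted p = 3.9e-15) and in MH86 (adjusted p = 4.3e-11). Rhythm was common: 71.1% of the 16842 genes tested were called in LY2186, 67.5% in SE21s and 72.1% in MH86. The fitted log2 difference from trough to peak set LHY apart in size: it was 10.97 ± 0.30 (SE) in LY2186, 10.17 ± 0.20 in SE21s and 10.86 ± 0.44 in MH86, against medians over all genes of 0.97, 0.88 and 0.96. By that size LHY ranked 7 in LY2186, 8 in SE21s and 7 in MH86 of the 16842 genes. P-values here rest on the spread among these libraries alone, and that spread may be technical.

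Libraries taken 24 h apart served as replicates of a clock hour, with 3 libraries at hour 0 and 2 at each other hour. In LY2186 the hours ran from the highest mean to the lowest as 0, 3, 21, 6, 18, 9, 12 and 15, and of neighbours in that order only hours 21 and 6 had overlapping values. In SE21s the order was 0, 3, 21, 6, 18, 9, 15 and 12, and only hours 3 and 21 overlapped. In MH86 it was 0, 3, 6, 21, 9, 18, 12 and 15, where hours 0 and 3 overlapped, as did hours 12 and 15. By hour means LHY was thus lowest at hour 12 in SE21s, and at hour 15 in LY2186 and MH86. The MH86 days did not share this, as the second was lowest at ZT36 (0.998 FPKM, against 1.2 FPKM at ZT39).

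SE21s had nearly equal shares of its daily LHY total 3 h before and 3 h after the peak, while the shares were unequal in LY2186 and MH86. Hour 21 held 5.73% of the sum of the 8 hour means in LY2186, 23.2% in SE21s and 2.16% in MH86. Hour 3 held 36.6%, 23.8% and 43.9% in the same lines. In MH86 the peak was broad on its late side, with hour 3 at 88.3% of hour 0, against 68.6% in LY2186 and 49.2% in SE21s.

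The second day was set against the first at the same hours. LHY did not pass this test in any of the 3 lines. On the second day LHY differed from the first by a log2 of 0.24 ± 0.15 in LY2186 (adjusted p = 0.26), 0.09 ± 0.15 in SE21s (adjusted p = 0.79) and 0.03 ± 0.15 in MH86 (adjusted p = 0.91). The background of such day differences was 4.98% of genes in LY2186, 0% in SE21s and 4.93% in MH86. For SE21s, limma called no gene between days, while 2387 genes had an unadjusted p under 0.05. The largest ratio between days was 2.4 in LY2186, at hour 21, against 1.28 in SE21s and 1.9 in MH86.

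The first comparison was between the parents. LHY was higher in SE21s than in MH86 at 17 of 17 times, a pattern that 8.73% of tested genes shared. Its mean over the 17 times was 1090 FPKM in SE21s and 503 FPKM in MH86, a ratio of 2.17. On the log2 scale with time as a block, SE21s exceeded MH86 by 1.89 ± 0.30 (SE; limma, adjusted p = 1.1e-06), and 69% of genes differed in level between these parents. Without the time block the spread holds the whole daily swing, and the adjusted p is 0.27.

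That difference was very unequal across the day. At hour 18, SE21s held 124 ± 10.4 FPKM and MH86 3.7 ± 1.02 FPKM (SD, n = 2 each), a 29.9-fold higher level (log2 4.90 ± 0.22, limma adjusted p = 5.9e-14, 32% of genes called). At hour 21, SE21s held 1730 ± 56.9 FPKM and MH86 73.8 ± 26.5 FPKM (SD, n = 2 each), 24.1-fold higher (log2 4.59 ± 0.22, limma adjusted p = 1.9e-13, 48% of genes called). By size these differences ranked 126 and 194 of 16842 genes. At hour 15 the values were 7.15 ± 0.762 FPKM in SE21s and 1.07 ± 0.193 FPKM in MH86, 4.89-fold higher (limma adjusted p = 4.2e-08, with 14.4% of genes called).

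At the peak itself the parents were closer. Hour 0 gave 3620 ± 508 FPKM in SE21s and 1700 ± 386 FPKM in MH86 (SD, n = 3 each), 2.15-fold higher (limma adjusted p = 2.8e-05, 52.5% of genes called). LHY was also higher in SE21s at hour 12, by a log2 of 1.07 ± 0.22 (limma adjusted p = 0.00098, 24% of genes called), and at hour 9, by 0.67 ± 0.22 (limma adjusted p = 0.034, 19.5% of genes called). The hour 12 call was lost without the ZT36 libraries (log2 0.61, limma adjusted p = 0.2). The hour 9 call was lost without the ZT9 libraries (limma adjusted p = 0.13), without the ZT33 libraries (limma adjusted p = 0.39), with no filter on low genes (0.052) or with no time block (0.14).

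At hours 3 and 6 no difference between the parents passed the threshold. Hour 3 gave 1780 ± 187 FPKM in SE21s and 1500 ± 42.7 FPKM in MH86 (log2 0.24 ± 0.22, limma adjusted p = 0.43, 30.8% of genes called). Hour 6 gave 202 ± 35 and 131 ± 13.7 FPKM in SE21s and MH86 (log2 0.62 ± 0.22, limma adjusted p = 0.055, 17.9% of genes called), and it passed under some alternatives. A test that the difference is the same at all 8 hours gave F = 70.8 (limma adjusted p = 5.4e-10), rank 8 of 16842 genes, where 21.2% of genes were called.

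The hybrid lay below SE21s in the hours before the peak. At hour 15, LY2186 had 1.71 FPKM in both libraries and SE21s 7.15 ± 0.762 FPKM (n = 2), a level 3.45-fold lower in LY2186 (log2 -1.79 ± 0.22, limma adjusted p = 5.6e-06, 17.5% of genes called). At hour 18, LY2186 had 17.8 ± 6.79 FPKM and SE21s 124 ± 10.4 FPKM, 7.02-fold lower (limma adjusted p = 4.2e-09, 16.9% of genes called). At hour 21, LY2186 had 321 ± 187 FPKM and SE21s 1730 ± 56.9 FPKM, 5.92-fold lower (limma adjusted p = 1.5e-08, 35.7% of genes called). The 2 libraries of each line did not overlap at any of these hours, and the share of all genes with no such overlap was not counted.

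From hour 0 to hour 12 LHY in LY2186 was not separated from SE21s by the test. The log2 differences were -0.27 ± 0.18 at hour 0 (limma adjusted p = 0.26, 33.2% of genes called), 0.20 ± 0.22 at hour 3 (0.6, 11.2%) and 0.09 ± 0.22 at hour 6 (0.91, 7.66%). They were -0.53 ± 0.22 at hour 9 (limma adjusted p = 0.17, 7.87% of genes called) and -0.53 ± 0.22 at hour 12 (0.14, 9.38%). At hours 0, 3 and 6 the libraries of LY2186 and SE21s overlapped. At hours 9 and 12 they did not, but the test did not pass there, and the share of all genes without such overlap was not counted. The difference varied with the hour (F = 30.2, limma adjusted p = 1.2e-06, rank 15, 8.62% of genes called).

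Against MH86 the hybrid was higher in the same part of the cycle. At hour 18, LY2186 had 17.8 ± 6.79 FPKM and MH86 3.7 ± 1.02 FPKM, 4.26-fold higher (log2 2.09 ± 0.22, limma adjusted p = 6.2e-07). Only 4.36% of genes were called at that hour, and LHY ranked 279 by size. At hour 21, LY2186 had 321 ± 187 FPKM and MH86 73.8 ± 26.5 FPKM, 4.08-fold higher (log2 2.03 ± 0.22, limma adjusted p = 9.8e-07, 7.7% of genes called). At hour 0, LY2186 had 2990 ± 241 FPKM and MH86 1700 ± 386 FPKM, 1.78-fold higher (limma adjusted p = 0.0019, 22% of genes called), a call lost without the ZT24 libraries (limma adjusted p = 0.072).

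The other hours did not pass between LY2186 and MH86. Their log2 differences were 0.44 at hour 3 (limma adjusted p = 0.3, 5.5% of genes called), 0.71 at hour 6 (0.091, 3.57%) and 0.14 at hour 9 (0.84, 5.72%), each ± 0.22. They were 0.54 at hour 12 (limma adjusted p = 0.21, 4.76% of genes called) and 0.50 at hour 15 (0.22, 5.33%). LHY at hour 6 passed when either of the ZT21 or ZT45 times was left out (limma adjusted p = 0.034 in each). The line by hour test gave F = 11.2 (limma adjusted p = 0.0027, rank 41), where 1.68% of genes were called.

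**Figure D2:**
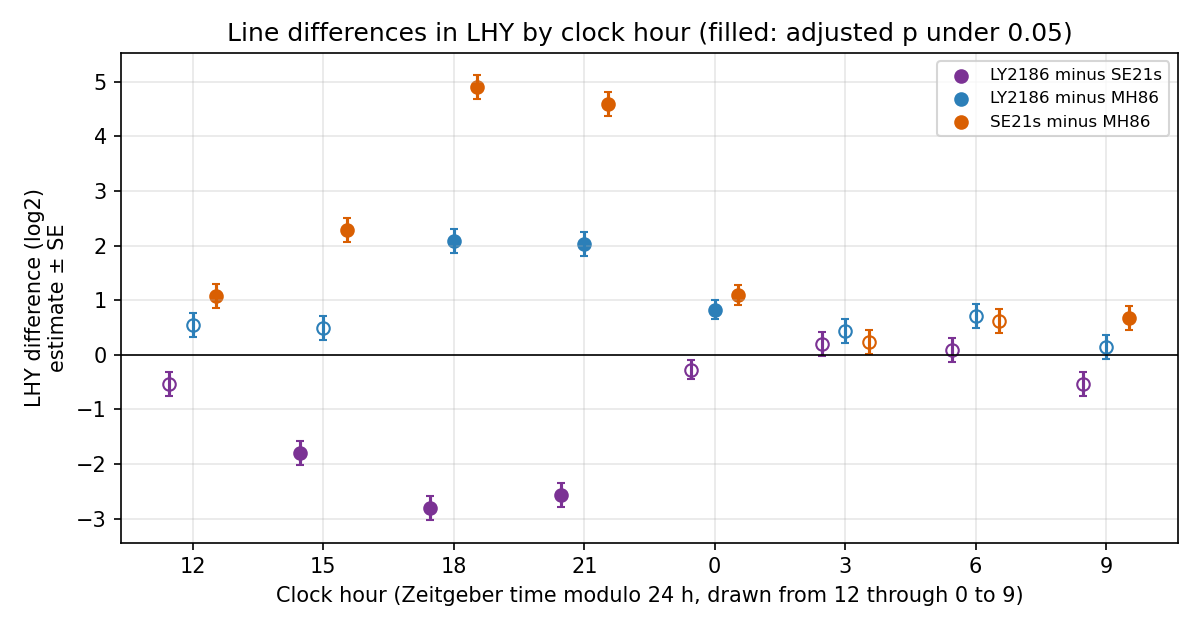
Log2 difference in LHY (± SE) at each clock hour (h, drawn from 12 through 0 to 9) for LY2186 minus SE21s, LY2186 minus MH86 and SE21s minus MH86. The differences are farthest from 0 at hours 18 and 21, where they are 4.90 and 4.59 for SE21s minus MH86, and that contrast is nearest 0 at hour 3. LY2186 minus SE21s is nearest 0 at hour 6 (0.09) and LY2186 minus MH86 at hour 9 (0.14).

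Over the whole course, LHY in LY2186 was lower than in SE21s by a log2 of -0.98 ± 0.30 (limma adjusted p = 0.0054) and was lower at 13 of 17 times. The mean was 835 FPKM in LY2186 and 1090 FPKM in SE21s, and 57.2% of genes were called in level. Against MH86 it was higher by 0.91 ± 0.30 (limma adjusted p = 0.018, 32.4% of genes called) and higher at 16 of 17 times, with means of 835 FPKM in LY2186 and 503 FPKM in MH86. Neither hybrid contrast passed within the first day alone (limma adjusted p = 0.081 against SE21s and 0.28 against MH86) or within the second (0.071 and 0.1), nor without a time block. The contrast with MH86 also missed the threshold without clock hour 0 (0.052).

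In timing the lines fell into the same order. LHY crossed 100 FPKM on the way up, interpolated on the log scale between neighbouring times, at clock hour 20.3 on the first day and 19.5 on the second in LY2186. SE21s crossed at 17.8 and 17.7, and MH86 at 21.6 and 21.1. SE21s was therefore 3.73 h and 3.36 h ahead of MH86, and LY2186 was 2.45 h and 1.77 h behind SE21s. The hybrid preceded MH86 by 1.28 h and 1.59 h.

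On the way down the lines were closer together at this level. LHY fell through 100 FPKM at clock hour 6.76 and 6.62 in LY2186, 6.8 and 6.65 in SE21s, and 6.34 and 6.2 in MH86. SE21s thus fell 0.46 h and 0.449 h after MH86, and LY2186 within 0.0403 h of SE21s. The lag of SE21s behind MH86 moved with the level: it was 0.47 h and 0.946 h at 10 FPKM, and 0.262 h and 0.313 h at 1000 FPKM. LY2186 minus SE21s was -0.227 h and -0.91 h at 10 FPKM, and 0.145 h and 0.172 h at 1000 FPKM. From the first day's rise to the second day's fall, LHY stayed above 100 FPKM for 10.3 h in LY2186, 12.8 h in SE21s and 8.63 h in MH86.

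The lead of SE21s over MH86 on the way up became shorter as the level rose, on both days. It was 3.81 h and 3.53 h at 10 FPKM, and 3.35 h and 2.97 h at 1000 FPKM. All these times are interpolated between samples 3 h apart and have no test. A line with more LHY also crosses a fixed level earlier on the way up and later on the way down. Amount and timing are therefore not separated in these crossings or in the hours above a level.

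**Figure D3:**
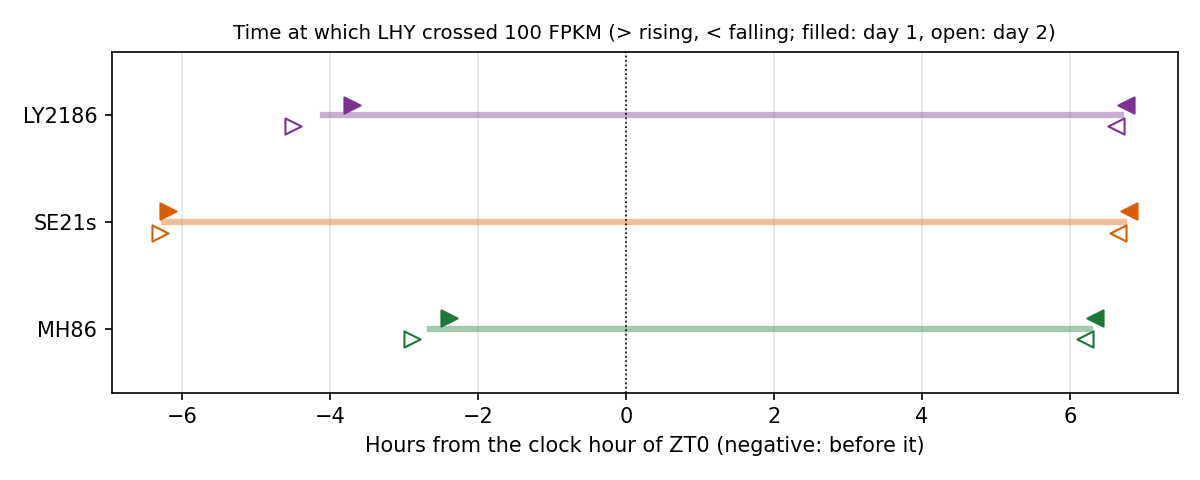
Clock hour (h) at which LHY crossed 100 FPKM on the way up and on the way down, on each day, in LY2186, SE21s and MH86. The rising times spread from 17.7 to 21.6 h, while the falling times lie between 6.2 and 6.8 h.

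The steps between neighbouring samples, given for the first day and then the second, differed between lines. From hour 12 to hour 15, the later value of LHY was 0.758 and 0.757 of the earlier in LY2186, 2.1 and 2.01 of it in SE21s, and 0.491 and 1.21 of it in MH86. LHY was thus already increasing in SE21s and not in LY2186 on both days, while the MH86 days went opposite ways. From hour 15 to hour 18 the increase was 7.59-fold and 13.2-fold in LY2186, 17.6-fold and 17-fold in SE21s, and 3.2-fold and 3.68-fold in MH86. From hour 18 to hour 21 it was 14.5-fold and 20.1-fold in LY2186, 14.6-fold and 13.5-fold in SE21s, and 18.5-fold and 20.9-fold in MH86. From hour 21 to the peak the increase was 16.1-fold and 7.05-fold in LY2186, 1.88-fold and 2.35-fold in SE21s, and 23.3-fold and 22.1-fold in MH86. From hour 6 to hour 9 the fall was 26.5-fold and 28.3-fold in LY2186, 21.9-fold and 14-fold in SE21s, and 20.6-fold and 16.9-fold in MH86.

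The fitted curve put the peak of LHY at 1.23 ± 0.11 h in LY2186, 0.223 ± 0.08 h in SE21s and 1.77 ± 0.16 h in MH86 (± SE). The highest hour mean was at hour 0 in all 3 lines. In MH86, however, ZT27 (1530 FPKM) lay above ZT24 (1280 FPKM), and the values of hours 0 and 3 overlapped. Differences in fitted peak are differences between fitted curves, and the hour means show no difference in the hour of the maximum. A two-sided permutation test swapped line labels within times. By it the fitted peak was 1.54 h earlier in SE21s than in MH86 (difference -1.54 h, permutation adjusted p = 0.0018 over 6 tests). It was 1 h later in LY2186 than in SE21s (permutation adjusted p = 0.0018) and 0.538 h earlier in LY2186 than in MH86 (difference -0.538 h, permutation adjusted p = 0.0075). On the FPKM scale, which the hours around the peak dominate, these differences were -1.3 h, 0.967 h and -0.334 h and none passed (permutation adjusted p = 0.079, 0.052 and 0.41).

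The trough-to-peak range was not separated between the lines on the log2 scale. The differences were -0.69 for SE21s minus MH86, 0.80 for LY2186 minus SE21s and 0.11 for LY2186 minus MH86 (permutation adjusted p = 0.49, 0.26 and 0.76). On the FPKM scale the fitted range was larger in SE21s than in MH86 by 1660 FPKM (permutation adjusted p = 0.0041). There it was larger in LY2186 than in MH86 by 1030 FPKM (permutation adjusted p = 0.0041), and the difference of -625 FPKM between LY2186 and SE21s did not pass (0.074).

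The limma test of the daily curve, which takes peak time and range together, called LHY between SE21s and MH86 (F = 40.9, adjusted p = 4.9e-07, 27.5% of genes called). It called LHY between LY2186 and SE21s (F = 18.6, limma adjusted p = 0.00071, 12.6% of genes called). Between LY2186 and MH86 it did not (F = 5.45, limma adjusted p = 0.14, 2.33% of genes called), nor between LY2186 and the mean of the parents (F = 2.42, limma adjusted p = 0.44, 0.808% of genes called).

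Set against its mid-parent, the mean of SE21s and MH86, LHY in LY2186 differed by a log2 of -0.04 ± 0.26 (limma adjusted p = 0.93, 26.8% of genes called). The log2 difference was above 0 in every library of hours 0, 3 and 6, where it averaged 0.28 (from 0.13 to 0.59), 0.32 (0.27 and 0.37) and 0.40 (0.35 and 0.44). It was below 0 in both libraries of hour 15 (-0.53 and -0.76) and of hour 18 (-0.58 and -0.14). The libraries had opposite signs at hour 9 (0.03 and -0.42), hour 12 (-0.10 and 0.12) and hour 21 (-0.70 and 0.16). LY2186 lay between its parents at 12 of 17 times. It was above both at 4 times (ZT3, ZT6, ZT27 and ZT30) and below both at 1 (ZT33). At the 4 times above both the higher parent was SE21s, from which the test at hours 3 and 6 did not separate it.

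On the linear scale the hybrid kept less of the mid-parent value before the peak. Its ratio to the mean FPKM of the parents was 0.419 at hour 15, 0.276 at hour 18 and 0.351 at hour 21. The ratio was 1.14 at hour 0, 1.25 at hour 3 and 1.29 at hour 6. Over the whole course the means were 835 FPKM in LY2186 and 797 FPKM for the parents, a ratio of 1.05.

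The 12 other clock genes, all of them tested, were read at the same hours. This list holds the PRR genes, ELF3 and LUX, and GI, FKF1 and 2 ZTL-like loci, whose proteins in Arabidopsis control the stability of clock proteins in the evening. Of the 12, 11 were rhythmic in LY2186 (71.1% of all genes), 10 in SE21s (67.5%) and 12 in MH86 (72.1%). In level 5 of 12 were called between SE21s and MH86, each lower in SE21s (median log2 -0.18, against -0.08 over all genes), a share below the 69% of all genes. Between LY2186 and SE21s 8 of 12 were called, each higher in LY2186 (median 0.20, against 0.04), where 57.2% of all genes were called. Between LY2186 and MH86 3 of 12 were called, each higher in LY2186 (median 0.05, against -0.02), where 32.4% of all genes were called. Of the 65 calls on these genes in level and by hour, all 65 kept their sign under median-ratio scaling and quantile normalization and 53 kept the call in both. These scalings also added calls, among them PRR73 higher in level in SE21s than in MH86 under median-ratio scaling (limma adjusted p = 0.043).

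In SE21s the genes that fell below MH86 in level were LUX (log2 -1.46 ± 0.27), ELF3-2 (-1.64 ± 0.25), PRR59 (-0.61 ± 0.10), GI (-0.38 ± 0.10) and PRR1 (-0.33 ± 0.13). PRR1, the rice relative of TOC1, lost its call under median-ratio scaling (limma adjusted p = 0.066). By hour, 6 of the 12 were called at hour 0 (52.5% of all genes), 3 at hour 18 (32%), 3 at hour 21 (48%) and 1 or 2 at each other hour, shares near or below those of all genes. All of these were lower in SE21s on the deposited scale. Under median-ratio scaling 4 were higher in SE21s at hour 3 (PRR1, PRR37, PRR73 and ELF3-1) and 1 at hour 12. Under quantile normalization 1 was higher at hour 0 (PRR73) and 1 at hour 3 (PRR1). LHY was called higher in SE21s at hours 0, 9, 12, 15, 18 and 21, and at hours 9, 12 and 15 only 1 other clock gene each was called on the deposited scale.

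The MYB-like factor LUX (LOC_Os01g74020) was among those lower in SE21s before the LHY peak. At hour 21 it had 19.6 FPKM in LY2186, 1.16 FPKM in SE21s and 36.7 FPKM in MH86. SE21s was lower than MH86 there by a log2 of -4.58 ± 0.37 (limma adjusted p = 1.9e-09), and LY2186 was higher than SE21s by 3.69 ± 0.37 (limma adjusted p = 1.9e-07). At hour 12, its highest, LUX had 733 FPKM in LY2186, 378 FPKM in SE21s and 541 FPKM in MH86, with no difference called. Over the 51 libraries LUX had the second lowest correlation with LHY of all genes tested (r = -0.964).

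ELF3-2 (LOC_Os01g38530), a scaffold of the evening complex, stayed high longest in MH86. At hour 0 it had 29.6 FPKM in LY2186, 3.04 FPKM in SE21s and 74.3 FPKM in MH86. SE21s was lower than MH86 by a log2 of -4.39 ± 0.17 (limma adjusted p = 3.3e-15). LY2186 was higher than SE21s by 3.11 ± 0.17 (limma adjusted p = 6.3e-12) and lower than MH86 by -1.29 ± 0.17 (limma adjusted p = 1.2e-05). At hour 21 the levels were 72.7 FPKM in LY2186, 15.4 FPKM in SE21s and 91 FPKM in MH86.

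PRR1 (LOC_Os02g40510) had 10.6 FPKM in LY2186, 4.84 FPKM in SE21s and 13.2 FPKM in MH86 at hour 21. SE21s was lower than MH86 there (log2 -1.37 ± 0.20, limma adjusted p = 1e-05), and LY2186 was higher than SE21s (1.07 ± 0.20, limma adjusted p = 0.00034). PRR59 (LOC_Os11g05930) at hour 0 had 40.4 FPKM in LY2186, 19.4 FPKM in SE21s and 52.1 FPKM in MH86. It was lower in SE21s than in MH86 by a log2 of -1.40 ± 0.12 (limma adjusted p = 4.4e-09), and higher in LY2186 than in SE21s by 1.03 ± 0.12 (limma adjusted p = 1.6e-06).

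Between LY2186 and SE21s 5 of the 12 were called at hour 15 (17.5% of all genes), 4 at hour 18 (16.9%), 5 at hour 21 (35.7%) and 3 at hour 0 (33.2%), each higher in LY2186. Under quantile normalization 4 were higher at hour 15, 2 at hour 18, 5 at hour 21 and 3 at hour 0, while PRR37 and PRR73 were lower at hour 0 and PRR73 at hour 21. At hour 3, 2 were higher and PRR1 was lower (11.2% of all genes called), and at hour 6 ELF3-2 alone was called (7.66%). At hours 9 and 12 none passed in limma (7.87% and 9.38% of all genes called). There 1 and 3 of the 12 had an unadjusted p under 0.05, and that share of all genes was not counted. The genes called at hour 15, when LHY in LY2186 was at its lowest, were PRR37 (log2 0.88 ± 0.22), PRR73 (0.65 ± 0.17), PRR59 (0.49 ± 0.15), ELF3-2 (1.05 ± 0.21) and GI (0.85 ± 0.27). GI lost this call under quantile normalization (limma adjusted p = 0.054). Against MH86, 5 of the 12 were called lower in LY2186 at hour 0, PRR1, PRR59, PRR95, ELF3-2 and LUX (22% of all genes called), and 3 higher at hour 15, PRR37, PRR73 and ELF3-1 (5.33%). Of these PRR95 lost its call under quantile normalization (limma adjusted p = 0.1).

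The fitted peaks of the daytime members were set beside that of LHY. The fit put PRR37 at 8.28 ± 0.39 h in LY2186, 7.94 ± 0.36 h in SE21s and 8.06 ± 0.35 h in MH86. By hour means PRR37 was highest at hour 6 in every line. The fit put GI at 9.02 ± 0.23, 8.76 ± 0.21 and 8.94 ± 0.22 h. PRR59 missed the rhythm threshold in SE21s, and its fitted peaks were 5.77 ± 1.2 h in LY2186, 7.43 ± 1.3 h in SE21s and 5.44 ± 0.89 h in MH86. Its hour means were highest at hour 9 (51.3, 45.4 and 65.4 FPKM in the same lines). They had a second high at hour 0 (40.4, 19.4 and 52.1 FPKM) and a dip at hour 3 (13.8, 8.47 and 20.1 FPKM). A single 24 h curve cannot follow such a course, so these fitted peaks do not mark its highest hours. From the fitted LHY peak to the fitted peak of PRR37 there were thus 7.05 h in LY2186, 7.72 h in SE21s and 6.3 h in MH86. To the fitted peak of PRR1 there were 10.9, 11.2 and 10.4 h in the same lines. By hour means, however, PRR1 was highest at hour 9 in every line (87.7, 81.4 and 91.3 FPKM). The test of the daily curve called 5 of the 12 between SE21s and MH86, PRR1, PRR59, ELF3-1, ELF3-2 and LUX, where 27.5% of all genes were called. Between LY2186 and SE21s it called 2, PRR37 and ELF3-2 (12.6% of all genes), a count that moved to 1 with a pseudocount of 0.1 and to 4 under quantile normalization. It called 0 between LY2186 and MH86 in limma (2.33% of all genes), where 3 of the 12 had an unadjusted p under 0.05.

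**Figure D4:**
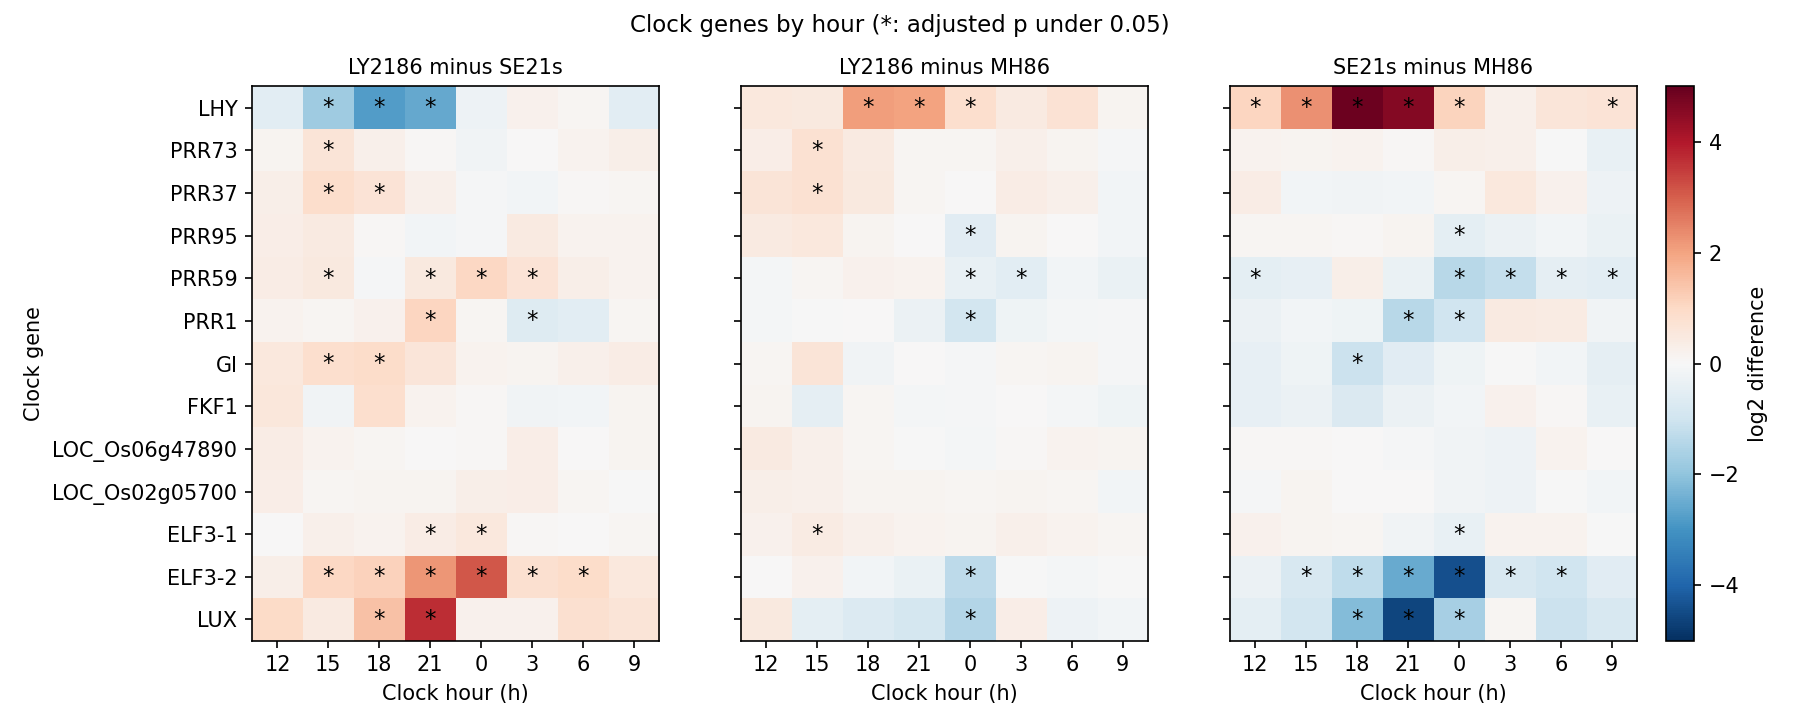
Log2 difference (colour, scale at the right) of LHY and the 12 other clock genes at each clock hour (h), for LY2186 minus SE21s, LY2186 minus MH86 and SE21s minus MH86. Stars mark an adjusted p under 0.05, and at hours 18 and 21 the LHY row and the LUX and ELF3-2 rows have opposite colours wherever both are starred.

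Leaf markers also differed at these hours. Between SE21s and MH86 4 of the 6 were called at hour 18 and 6 at hour 21, each higher in SE21s (32% and 48% of all genes called). Between LY2186 and SE21s 1 was called at hour 18 and 4 at hour 21, each lower in LY2186 (16.9% and 35.7%). Between LY2186 and MH86 2 were called at hour 18 and 4 at hour 21, each higher in LY2186 (4.36% and 7.7%). The chlorophyll-binding gene CAB1R was higher in SE21s than in MH86 by a log2 of 6 ± 0.23 at hour 21 (limma adjusted p = 2.4e-15) and 2.86 ± 0.23 at hour 18 (limma adjusted p = 1.4e-09). It was lower in LY2186 than in SE21s by -4.36 ± 0.23 at hour 21 (limma adjusted p = 2.5e-12). The small Rubisco gene RBCS2 was higher in SE21s than in MH86 at hour 21 by 3.14 ± 0.35 (limma adjusted p = 2.3e-07). The part of these leaf markers in the LHY differences at hours 18 and 21 was not tested.

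In rice, OsCCA1 has been tied to tillering through TB1, IPA1 and D14, and D10 is a strigolactone synthesis gene of the same pathway. Of these 4 genes D14, the strigolactone receptor, was the only one to reach a mean of 1 FPKM in these leaves. D14 was higher in LY2186 than in SE21s by a log2 of 0.37 ± 0.14 (limma adjusted p = 0.023) and than in MH86 by 0.42 ± 0.14 (limma adjusted p = 0.02). LHY, by contrast, lay between the parents in level.

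The course of LHY was shared by many genes. Over the 51 libraries, which share lines and times, 311 of the 16841 other genes (1.85%) had a Pearson r above 0.9 with LHY and 62 had one below -0.9, while the median r was 0.01. The closest were LOC_Os01g61400 (r = 0.986, rho = 0.981) and LOC_Os02g57160 (r = 0.985, rho = 0.974). At hour 21, LOC_Os02g57160 had 96.8 FPKM in LY2186, 231 FPKM in SE21s and 57.7 FPKM in MH86, the line order of LHY. The gene was picked by its r over these same libraries, so that order is not a separate result. Its hour means were highest at hour 3 in LY2186 and MH86, and at hour 0 in SE21s. The most opposed were LOC_Os11g03670 (r = -0.967, rho = -0.951) and LUX (r = -0.964, rho = -0.939). Of the other clock genes, PRR1 had r = -0.894, FKF1 -0.802, ELF3-2 -0.564 and the ZTL-like locus LOC_Os02g05700 0.819.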

How the data were processed

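Strand-specific RNA-seq was made from 51 flag leaf samples, and the authors deposited 1 table of FPKM values. The tools named in the submitters' processing notes are TopHat2 and Cuffdiff. Their versions, the genome build, the annotation and the handling of multiply mapped fragments were not given in the sources used here. Depth per library is unknown, so no counting intervals are given. The columns were named by line and time and held no identical pair.

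The 16842 genes averaging 1 FPKM or more over the 51 libraries were tested on a log2(FPKM + 0.5) scale, so fold changes of low genes are understated. limma 3.58.1 (R 4.3.3) was run over all these genes with a robust, trended prior on the variance. Tests were two-sided, and p-values were adjusted by Benjamini and Hochberg, with calls at 0.05. Levels and hours used time as a block. Peak and range differences of LHY used a permutation test with 100000 draws on line-centred values. The steps were tested on simulated data. Crossing times, and leaving out each time, were chosen after seeing the data. LHY, the gene lists and the tests were chosen with earlier results of these data known. The genes named are LHY, tested members of the clock and tillering lists, and the 2 genes most like LHY and the 2 least like it. Markers are named as a check of the tissue.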

Additional observations from a re-analysis of the deposited data

Results flagged for a closer look

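These LHY values are listed because the daily curve, the line difference by hour or the peak time differed between lines in a test of that difference itself. The daily curve of LHY differed between SE21s and MH86 (limma adjusted p = 4.9e-07) and between LY2186 and SE21s (limma adjusted p = 0.00071). The line difference was not the same at all 8 clock hours for SE21s against MH86 (limma adjusted p = 5.4e-10), LY2186 against SE21s (limma adjusted p = 1.2e-06) and LY2186 against MH86 (limma adjusted p = 0.0027). The fitted peak differed by -1.54 h for SE21s minus MH86, 1 h for LY2186 minus SE21s and -0.538 h for LY2186 minus MH86, each past the threshold in the permutation test.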

How the results depend on the processing

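Of 863 recomputed values for 61 results, 819 kept their direction and their side of the threshold, or for counts their size. The labels give no replicate numbers; the lines were paired by time, as a block in the level and hour fits. Without the time block the level of LHY differed by a log2 of 1.89 between SE21s and MH86, -0.98 between LY2186 and SE21s and 0.91 between LY2186 and MH86, none past the threshold, since the daily swing then enters the spread. Within the first day LY2186 differed by -1.1 from SE21s and 0.82 from MH86, and within the second by -0.94 and 1.03, none past it; these use fewer samples. Without clock hour 0 LY2186 minus MH86 was 0.92 and missed it. The mid-parent contrast of LHY, -0.04, turned to 0.05 on the second day, 0.04 without clock hour 15 and 0.01 without clock hour 18. Under quantile normalization hour 3 of SE21s minus MH86 turned to -0.08 and hour 0 of LY2186 minus SE21s to 0.01; hour 9 of LY2186 minus MH86 turned to -0.03 without ZT9 and was 0.32 without ZT33. None of these was called. The log2 range of LY2186 minus MH86 turned to -0.03 with a pseudocount of 0.1. On the FPKM scale the range differences of 1660 (SE21s minus MH86) and -625 (LY2186 minus SE21s) had the opposite sign to those on the log2 scale, that of LY2186 minus MH86, 1030, passed, and the peak differences of -1.3, 0.967 and -0.334 h no longer passed. For these the cause was not tested. Leaving out each time gave 5 to 7 hours called for SE21s minus MH86, 3 for LY2186 minus SE21s and 2 to 4 for LY2186 minus MH86, and F values by hour of 54.4 to 88, 23.1 to 42 and 8.45 to 14.5. Of the other clock genes, 5 (median-ratio scaling) or 1 (quantile normalization) instead of 3 were called in level for LY2186 minus MH86, and 1 (pseudocount of 0.1) or 4 (quantile normalization) instead of 2 in the daily curve for LY2186 minus SE21s. Other scalings moved the median of all genes by over 0.1 (log2) for SE21s minus MH86 at hour 3 (0.16 and 0.12) and hour 21 (0.11); the 12 called hour contrasts of LHY kept direction and call in both.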
